A study of Mus musculus with 24 samples.

Results

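The early growth response (EGR) factors and their NAB corepressors were followed as 5 genes, Egr1, Egr2, Egr3, Nab1 and Nab2, across 4 states of mouse CD4 T cells. They were taken by symbol from tables of read counts per gene, which hold 23420 genes. All 5 were found, and all 5 passed the filter on low counts that left 12584 genes for testing. RNA sequencing gave 24 libraries, 6 for each state, and the 6 carry numbers in the labels. Reactivated TH1 cells had spent 5 days in differentiation to the helper type that makes interferon-gamma, and then 6 hours with macrophages loaded with antigen. TH1 effector cells had the same differentiation and no restimulation. Where they are called resting below, only the lack of restimulation is meant. Activated naive cells were spleen-derived naive cells stimulated for 6 hours, with a stimulus that the labels used here do not name. Naive cells were the resting starting population. Every group came from animals of genotype OT2Nur77GFP+/-, on a C57BL/6 background, and all groups thus share 2 transgenes. Tg(TcraTcrb)425Cbn (OT-II) gives most CD4 T cells a single receptor for an ovalbumin peptide, and Tg(Nr4a1-EGFP/cre)820Khog is a green reporter driven by the regulatory region of Nr4a1 (Nur77). No TH1 group with macrophages that lacked antigen was analysed here, so antigen and contact with macrophages cannot be told apart in the restimulated cells. The labels used here do not say whether the M codes of the 6 libraries of a state stand for separate mice or cultures. The p-values therefore refer to the spread among libraries, which may be partly technical.

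EGR proteins are zinc finger transcription factors that bind a GC-rich DNA element, and their genes are immediate-early genes that T cell receptor signals switch on within a short time. Egr1 is best known as a target of the RAS and ERK route through serum response factor and its ELK partners, while calcium signals through NFAT factors also feed into Egr2 and Egr3. NAB1 and NAB2 do not bind DNA themselves: they dock on EGR1, EGR2 and EGR3 and bring chromatin remodelling and deacetylase complexes to EGR target genes. Nab2 is known as an EGR target, which makes a feedback loop. In T cells, EGR2 and EGR3 are known for restraining receptor signalling and for their part in anergy.

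Promoter sequences of 3 members, Egr2, Nab1 and Nab2, were taken from the RefSeq promoter table of the mouse build GRCm38.p6. The windows run from 250 bases before to 50 bases after each annotated start. They are shown for an EGR gene with large rises on both stimulations and for both corepressor genes. The 5 windows for starts of Egr2 in the table overlap in part and hold 2 distinct CArG boxes, the binding sequence of serum response factor, with 1 of the boxes in 3 of the windows. The stretch before the start of the third window, on the plus strand at chr10:67537619-67537868, and the second box found farther upstream, on the plus strand at chr10:67537484-67537513, have the box in capitals. For both NAB genes, the capitals mark the EGR element GCGTGGGC or its reverse complement. The Nab1 stretch is from the minus strand at chr1:52500539-52500568 and the Nab2 stretch from the minus strand at chr10:127666717-127666746.
Egr2 before its start: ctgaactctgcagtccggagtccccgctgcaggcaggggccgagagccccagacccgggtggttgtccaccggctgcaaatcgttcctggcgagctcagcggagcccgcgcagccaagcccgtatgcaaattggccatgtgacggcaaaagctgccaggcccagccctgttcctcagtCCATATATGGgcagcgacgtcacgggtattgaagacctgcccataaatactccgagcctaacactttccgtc
Egr2 second CArG box: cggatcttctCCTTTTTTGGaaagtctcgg
Nab1 site 2: cactcggccgcGCGTGGGCgggagccggag
Nab2 site 1: cccccggttctGCCCACGCcctcctcccgc
The CArG box of the first stretch lies at -72 to -63 from the start. The Nab1 element printed lies at -109 to -102, and another on the opposite strand lies at -140 to -133. The Nab2 element, on the opposite strand, lies at -32 to -25. Both strands were searched, the motifs were chosen after the sequences had been looked at, and no matches of different motifs overlapped. Of all 32851 windows of 300 bases in the table, 1.63% hold a CArG box and 1.63% the element GCGTGGGC. The cyclic AMP response element TGACGTCA is in 1.79% of all windows and in none of those of Egr2, Nab1 and Nab2. A match describes the letters and does not show that a factor binds there.

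In the gene annotation GENCODE M21 on the build GRCm38/mm10, Egr2 lies on the plus strand at chr10:67535475-67542188 and Egr3 on the plus strand at chr14:70077203-70082614. Nab1 lies on the minus strand at chr1:52457294-52500679 and Nab2 on the minus strand at chr10:127660918-127668568. All 5 members are protein-coding genes, and all but Nab2 overlap no other annotated gene. Nab2 shares 40 exon bases with Stat6, 151 with Nemp1 and 1050 with the antisense gene Gm16229, all on the other strand. Whether the counting used strand is not given in the sources used here, and the Nab2 counts are uncertain to that extent. Stat6, a transcription factor of interleukin-4 signalling, averaged 303 CPM in reactivated TH1, 179 CPM in TH1 effector, 483 CPM in activated naive and 332 CPM in naive libraries, where CPM are read counts scaled to a common library size with composition factors. Nemp1, listed under its older name Tmem194, averaged 107, 44.7, 33.4 and 31.6 CPM in the same order of states. The part of these neighbours in the Nab2 values was not tested.

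Each library held between 18457653 and 34262645 reads counted in genes. Numbers 1 to 3 of each state came from 1 sequencing run and numbers 4 to 6 from another, going by the flow cell code of each file. The 8 CD4 T cell markers, among them Cd3e, Cd4 and Lck, summed to 3089 to 3466 CPM in reactivated TH1, 2829 to 3204 CPM in TH1 effector, 4530 to 5503 CPM in activated naive and 3873 to 4224 CPM in naive libraries, and each was counted in every group. The 6 TH1 state genes, such as Ifng and Tbx21, summed to 10643 to 22939 CPM in reactivated TH1 and 1962 to 2513 CPM in TH1 effector libraries, against 120 to 138 CPM in activated naive and 129 to 163.4 CPM in naive libraries. Ifng alone averaged 12950 CPM in reactivated TH1 libraries. Ifng, Tbx21, Il12rb2 and Gzmb each averaged more in both TH1 states than in activated naive or naive cells. Cxcr3 was instead highest in activated naive libraries, with 45.9 CPM on average, against 35.8 CPM in reactivated TH1 and 22.7 CPM in TH1 effector libraries. Stat4 averaged 186 CPM in reactivated TH1, 116 CPM in TH1 effector, 29.1 CPM in activated naive and 145 CPM in naive libraries. Markers of macrophages, the cells that reactivated TH1 cells had met, summed to 29.9 to 40.3 CPM over 16 genes in reactivated TH1 and 7.73 to 11.3 CPM in TH1 effector libraries. They summed to 26.9 to 47.7 CPM in activated naive and 14.8 to 21.8 CPM in naive libraries. Among the defining ones, Csf1r averaged 0.724 CPM and C1qa 0.313 CPM in reactivated TH1 libraries, and neither had a count in TH1 effector or activated naive libraries. Of the 16, 1 had no count in reactivated TH1, 8 in TH1 effector, 6 in activated naive and 6 in naive libraries. B cell markers summed to at most 23.2 CPM in any library, in TH1 effector number 3. Dendritic cell markers reached 10.7 CPM, and CD8 and NK cell markers 87.6 CPM, both in reactivated TH1 libraries. Of the CD8 and NK cell sum, Eomes, which T cells also express, gave 54.1 CPM on average. The part of any of these cells in the EGR and NAB values was not tested, and in bulk samples fewer expressing cells and less RNA per cell cannot be told apart.

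**Figure D1:**
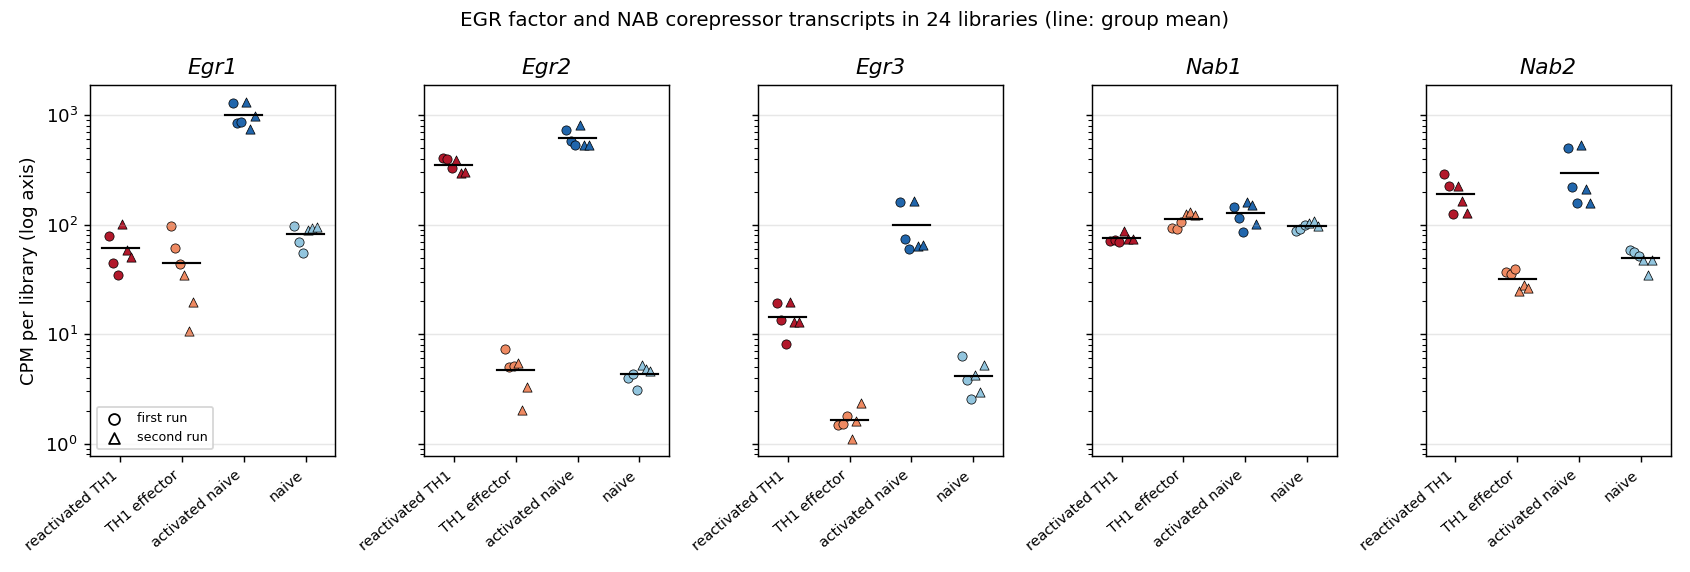
Level of each of the 5 genes in CPM on a logarithmic axis, with 1 point per library (circles first run, triangles second run) and a line at the mean of each state, n = 6. Activated naive libraries are the highest for Egr1, Egr2 and Egr3, reactivated TH1 libraries hold 296 to 409 CPM of Egr2, and Nab1 stays between 68.9 and 159.3 CPM throughout.

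Stimulation of naive cells raised all 5 genes, although Nab1 rose only 1.30-fold, with overlapping libraries and a call lost in 2 of 16 alternatives. At an adjusted p under 0.05, 81.9% of all tested genes were called in this comparison, 41.3% higher and 40.5% lower, and 5 of 5 members were higher. Their median log2 fold change was 3.60, beside 0.00464 over all tested genes. The first stimulation and the restimulation are described for each factor below, with the EGR factors before the corepressors.

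Egr1, the founding member of the family and an activator of early response genes, reached 748, 920 and 1323 CPM (lowest, median and highest library) in activated naive cells, against 55.1, 91.0 and 96.1 CPM in naive cells. Every activated naive library stood far above every naive one. In the annotation named above, Egr1 lies on the plus strand at chr18:34859823-34864984. The mean was 1007 ± 240 CPM in activated naive and 82.9 ± 16.8 CPM in naive libraries (SD, n = 6 each), a 12.1-fold rise (log2 3.60, SE 0.19, adjusted p = 4.65e-08). The difference in mean log2 CPM was 3.77 in the first and 3.42 in the second run.

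In TH1 cells no rise of Egr1 was detected after 6 hours of restimulation, the only time sampled, so earlier levels are not known. Reactivated TH1 libraries held 34.9, 54.4 and 101 CPM of Egr1, against 10.7, 39.3 and 96.9 CPM in TH1 effector libraries, and the groups overlapped over most of their range. The means were 61.2 ± 24.4 CPM and 44.6 ± 31.3 CPM for reactivated TH1 and TH1 effector cells (SD, n = 6 each), with a log2 fold change of 0.50 (SE 0.37, adjusted p = 0.229). Of the 4 states, TH1 effectors had the widest relative spread of Egr1, and it followed the run. Egr1 in TH1 effector libraries was 44.0 to 96.9 CPM in the first and 10.7 to 34.6 CPM in the second run. By run, the log2 difference between reactivated TH1 and TH1 effector cells was -0.37 in the first and 1.78 in the second run. In a fit with a group-by-run term, chosen after seeing the data, these differed by 2.05 (edgeR adjusted p = 0.103), while 0.644% of all genes were called for that difference. Taken alone, the second run placed Egr1 past the threshold on restimulation (log2 1.71, adjusted p = 0.00485).

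Resting TH1 effector cells held somewhat less Egr1 than naive cells, by a call that rests on part of the libraries. TH1 effector cells were 0.94 lower than naive cells on the log2 scale (log2 fold change -0.94, SE 0.32, adjusted p = 0.0279), in libraries that overlap. The call depended on the run: the log2 difference was -0.16 in the first and -2.24 in the second run, and the call was lost in the first run alone (adjusted p = 0.835) and without number 5 (0.112) or number 6 (0.133). In the group-by-run fit the change in this difference between runs was -1.97 (adjusted p = 0.133, with 0.509% of all genes called), and that of TH1 effector against activated naive cells was -1.66 (adjusted p = 0.188, with 0.826% called). Reactivated TH1 cells stood 16.3-fold below activated naive cells in Egr1 (log2 -4.03, SE 0.28, adjusted p = 1.47e-08), with no overlap of libraries. From high to low, Egr1 was thus ordered activated naive, naive, reactivated TH1 and TH1 effector, and neighbours among the last 3 were not told apart (adjusted p = 0.272 for reactivated TH1 against naive and 0.229 for reactivated TH1 against TH1 effector).

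Egr2, a factor known for restraining T cell receptor responses and for tolerance, had the largest rise of the EGR genes in both kinds of cells. Activated naive libraries held 528, 556 and 805 CPM of Egr2, against 3.10, 4.47 and 5.21 CPM in naive libraries. Restimulated TH1 libraries held 296, 362 and 409 CPM, against 2.01, 5.07 and 7.35 CPM in TH1 effector libraries. Both stimulated states thus lay far above their resting counterparts, with a gap to every resting library. Egr2 averaged 617 ± 119 CPM in activated naive and 4.33 ± 0.730 CPM in naive cells (SD, n = 6 each), a 144-fold rise (log2 7.17, SE 0.14, adjusted p = 2.92e-18). On restimulation it averaged 354 ± 50.9 CPM in reactivated TH1 and 4.70 ± 1.84 CPM in TH1 effector cells (SD, n = 6 each), a 74.2-fold rise (log2 6.21, SE 0.23, adjusted p = 5.66e-17). Within the first and the second run, the log2 rise was 7.30 and 6.95 in naive cells and 6.02 and 6.59 in TH1 cells. The stretch with the CArG box printed above belongs to this gene.

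At rest, Egr2 did not differ detectably between TH1 effector and naive cells (log2 0.15, SE 0.23, adjusted p = 0.534). In the first run alone it was higher in TH1 effectors (log2 0.64, adjusted p = 0.00811), whereas the second run alone gave -0.44. After stimulation, reactivated TH1 cells stayed below activated naive cells by 0.81 on the log2 scale (log2 fold change -0.81, SE 0.15, adjusted p = 0.000147), with no overlap. The order of Egr2 was activated naive, reactivated TH1, TH1 effector and naive, and the last 2 were not told apart.

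Egr3, which shares much of its T cell role with Egr2 and is known as a partner in limiting activation, rose in both kinds of cells from a low base. Activated naive libraries held 60.0, 69.5 and 165.1 CPM of Egr3, against 2.56, 3.99 and 6.34 CPM in naive libraries. Reactivated TH1 libraries held 8.10, 13.1 and 19.8 CPM, against 1.11, 1.56 and 2.34 CPM in TH1 effector libraries. No stimulated library overlapped with its resting group. The rise was 23.5-fold in activated naive over naive cells (log2 4.55, SE 0.38, adjusted p = 2.39e-11) and 8.75-fold in reactivated TH1 over TH1 effector cells (log2 3.13, SE 0.26, adjusted p = 4.21e-08). By run, the log2 rise of Egr3 was 4.48 and 4.43 in naive cells and 2.95 and 3.14 in TH1 cells. In activated naive cells the 2 highest libraries, numbers 1 and 4, were at 161.6 and 165.1 CPM, and the other 4 at 60.0 to 74.3 CPM.

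Egr3 separated all 4 states. TH1 effectors had less of it than naive cells without overlap of libraries (means 1.64 ± 0.410 CPM and 4.17 ± 1.42 CPM for TH1 effector and naive cells, SD, n = 6 each; log2 -1.35, SE 0.27, adjusted p = 0.0022). The second run alone left this difference just short of the threshold (log2 -1.29, adjusted p = 0.0539). Reactivated TH1 cells had 6.84-fold less than activated naive cells (log2 -2.77, SE 0.38, adjusted p = 1.99e-08) and more than naive cells (log2 1.78, SE 0.30, adjusted p = 2.11e-05). Egr4, a further member of the family, was too rare to be tested. Its counts summed to 28 in reactivated TH1, 0 in TH1 effector, 82 in activated naive and 0 in naive libraries. With 3 counts taken over each group that had none, mean Egr4 in reactivated TH1 cells was 9.23-fold that level for TH1 effector cells. The same ratio was 25.2 for activated naive over naive cells. Both ratios allow for counting error in the group with none, and not for that in the stimulated group. Wt1, a zinc finger gene with a related DNA element, had 7 counts each in reactivated TH1 and TH1 effector libraries and 0 in activated naive and naive libraries.

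**Figure D2:**
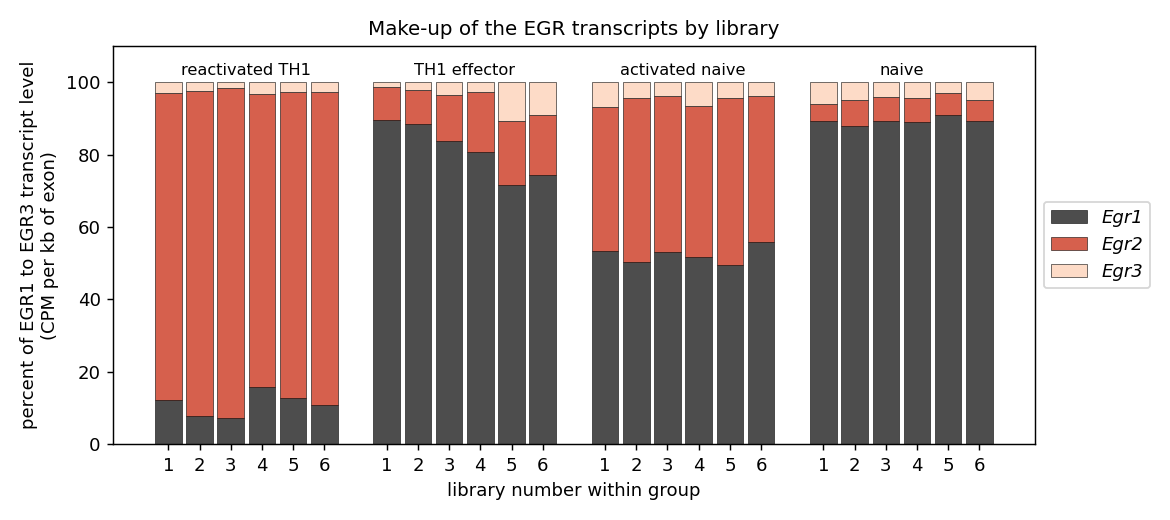
Share of Egr1, Egr2 and Egr3 in their summed level (CPM per kilobase of exon, in percent), as 1 stacked bar per library in the 4 states. Egr2 makes up 81.1% to 91.0% in reactivated TH1 libraries and at most 46.2% in any activated naive library, and Egr1 makes up at least 71.5% in every TH1 effector and naive library.

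The mixture of EGR transcripts differed from state to state. To compare the genes with each other, CPM were divided by the length of merged exons (4484 bases for Egr1, 3398 for Egr2 and 4406 for Egr3). On this scale Egr2 stood at 104 ± 15.0 CPM per kb in reactivated TH1 cells, where Egr1 was at 13.6 ± 5.43 CPM per kb and Egr3 at 3.26 ± 1.01 CPM per kb (SD, n = 6). In activated naive cells Egr1 led with 225 ± 53.6 CPM per kb, ahead of Egr2 with 181 ± 35.1 CPM per kb and Egr3 with 22.3 ± 11.5 CPM per kb (SD, n = 6). Egr2 therefore formed 86.2% ± 3.71 of the 3 transcripts in reactivated TH1 libraries, 13.7% ± 3.84 in TH1 effector, 42.7% ± 2.56 in activated naive and 6.25% ± 0.867 in naive libraries (SD, n = 6 each). Reactivated TH1 cells were the state in which Egr2 outweighed Egr1 in all 6 libraries, and the plot of shares by library shows no overlap with any other state. Egr1 formed 11.1% ± 3.22 in reactivated TH1, 81.4% ± 7.32 in TH1 effector, 52.4% ± 2.26 in activated naive and 89.2% ± 1.01 in naive libraries (SD, n = 6 each). Egr3 stayed a small part, between 1.39% and 10.8% in any library. The ratio of raw counts of Egr2 to Egr1, which needs no scaling between libraries, had medians of 5.60 in reactivated TH1, 0.137 in TH1 effector, 0.611 in activated naive and 0.0537 in naive libraries. Its range was 3.90 to 9.45 in reactivated TH1 and 0.548 to 0.705 in activated naive libraries.

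The corepressors behaved unlike each other. Nab2, the inducible of the pair, reached 156.7, 216 and 529 CPM in activated naive libraries, against 34.5, 49.9 and 58.3 CPM in naive libraries. On restimulation it reached 125, 193 and 290 CPM in reactivated TH1 libraries, against 24.6, 31.6 and 39.1 CPM in TH1 effector libraries. Neither stimulated group overlapped with its resting group. Nab2 rose 6.06-fold in activated naive over naive cells (log2 2.60, SE 0.37, adjusted p = 6.76e-08) and 6.08-fold in reactivated TH1 over TH1 effector cells (log2 2.60, SE 0.22, adjusted p = 9.18e-08). By run, the log2 rise of Nab2 was 2.22 and 2.60 in naive cells and 2.44 and 2.66 in TH1 cells. The rise in TH1 cells minus the rise in naive cells was 0.00449 on the log2 scale, with an SE of 0.43 (edgeR adjusted p = 1), so a difference of the size of that SE would not have been detected. In activated naive cells numbers 1 and 4 again held the highest values, 496 and 529 CPM, and the other 4 libraries held 156.7 to 219 CPM. Without numbers 1 and 4, left out after seeing the data, the log2 rise of Nab2 in activated naive over naive cells was 1.97.

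At rest Nab2 was lower in TH1 effector than in naive cells by 0.64 on the log2 scale (log2 fold change -0.64, SE 0.09, adjusted p = 0.0467), in libraries that overlap. This call was lost in 8 of 16 alternatives, with adjusted p-values up to 0.249. Reactivated TH1 cells were lower than activated naive cells in Nab2 (log2 -0.64, SE 0.42, adjusted p = 0.0437), with overlap, and that call was lost in 9 of 16 alternatives, with adjusted p-values up to 0.348. Nab2 was ordered activated naive, reactivated TH1, naive and TH1 effector, with the first and the last of these steps near the threshold.

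Nab1, which like Nab2 was present without stimulation, moved within a narrow range. Activated naive libraries held 86.3, 130 and 159.3 CPM of Nab1, against 86.8, 97.5 and 108 CPM in naive libraries, and the groups overlapped. The rise was 1.30-fold (log2 0.37, SE 0.16, adjusted p = 0.0016). It was not called with library size scaling (adjusted p = 0.0503) or without numbers 1 and 4 (0.142). On restimulation the direction was the opposite one. Nab1 held 68.9, 73.4 and 87.4 CPM in reactivated TH1 libraries, against 90.5, 115 and 131 CPM in TH1 effector libraries. The groups did not overlap, and Nab1 fell by 0.57 on the log2 scale (SE 0.06, adjusted p = 1.87e-05). Reactivated TH1 cells had the lowest mean Nab1 of the 4 states, 74.6 ± 6.65 CPM (SD, n = 6), and were below activated naive cells (log2 -0.76, SE 0.16, adjusted p = 2.66e-07) and below naive cells (log2 -0.38, SE 0.05, adjusted p = 0.0012). TH1 effector, activated naive and naive cells averaged 111 ± 16.9, 127 ± 30.0 and 97.4 ± 7.95 CPM (SD, n = 6 each). TH1 effector cells differed past the threshold from neither activated naive cells (adjusted p = 0.0811) nor naive cells (0.0956).

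Per kilobase of exon, with 4100 bases for Nab1 and 2941 for Nab2, Nab2 exceeded Nab1 in the stimulated states and Nab1 exceeded Nab2 at rest. Nab2 was at 65.2 ± 22.1 and Nab1 at 18.2 ± 1.62 CPM per kb in reactivated TH1 cells (SD, n = 6). In TH1 effector cells Nab2 was at 10.8 ± 2.09 and Nab1 at 27.1 ± 4.12 CPM per kb (SD, n = 6). The Nab2 to Nab1 ratio of raw counts had medians of 2.37 in reactivated TH1, 0.291 in TH1 effector, 1.86 in activated naive and 0.512 in naive libraries. It was 1.71 to 4.14 in reactivated TH1 libraries and 0.199 to 0.394 in TH1 effector libraries, and no stimulated library overlapped with a resting one. Set against Egr2, the ratio of Nab2 to Egr2 counts had medians of 0.559 in reactivated TH1, 7.34 in TH1 effector, 0.391 in activated naive and 11.6 in naive libraries.

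**Figure D3:**
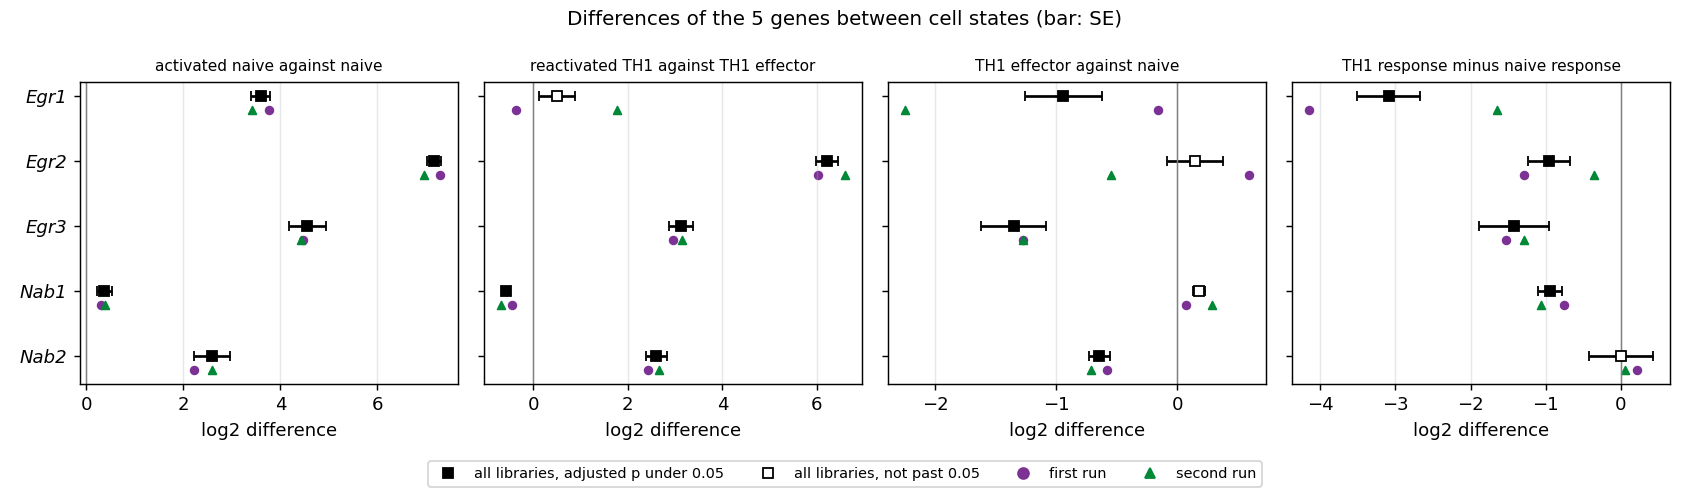
Log2 difference of each gene in 4 comparisons, each panel with its own axis: squares are the fit to all libraries with the SE as a bar, filled where the adjusted p is under 0.05, and circles and triangles are differences of mean log2 CPM within the first and the second run. Egr2 and Nab2 lie far right of 0 on both stimulations in both runs, and Egr1 lies on opposite sides of 0 in the 2 runs for reactivated TH1 against TH1 effector cells.

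Over the comparisons, the members called were as follows. For reactivated TH1 against TH1 effector cells, where 79.7% of all tested genes were called, 39.9% higher and 39.8% lower, 3 members were higher, 1 lower and 1 not past the threshold, with a median log2 fold change of 2.60. For TH1 effector against naive cells, where 84.9% were called, 44.6% higher and 40.3% lower, none was higher, 3 were lower and 2 were not past the threshold, and only 1 member was called in the second run alone or without number 5 or 6. For reactivated TH1 against activated naive cells, 79.8% were called, 43.4% higher and 36.4% lower. There 5 of 5 members were lower, by a median of 0.81 (log2 fold change -0.81). The Nab2 call among them was lost in 9 of 16 alternatives. For reactivated TH1 against naive cells, with 87.6% called, 47.9% higher and 39.8% lower, 3 were higher, 1 was lower and 1 was not past the threshold. For TH1 effector against activated naive cells, with 86.9% called, 45.6% higher and 41.2% lower, 4 were lower and 1 was not past the threshold. These comparisons share groups with each other, so their counts are not independent. With so large a share of all genes called, a count of members says less than the size of each change.

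The response of TH1 cells was then set against that of naive cells, gene by gene, as the log2 change of reactivated TH1 over TH1 effector cells minus that of activated naive over naive cells. Of all tested genes, 68.0% were called by this measure, 34.3% higher and 33.7% lower, and 4 of 5 members were lower. Egr1 differed most, by -3.09 (SE 0.42, adjusted p = 3.7e-05), with -4.15 in the first and -1.64 in the second run. Egr3 followed with -1.43 (SE 0.46, adjusted p = 0.0115) and Egr2 with -0.95 (SE 0.27, adjusted p = 0.00402). For these 3 factors the difference means a smaller rise in TH1 cells or, for Egr1, no detected rise. This holds for 6 hours of stimulation, the only time sampled. Nab1 differed by -0.94 (SE 0.17, adjusted p = 2.97e-06), with a small rise in naive cells and a fall in TH1 cells. In the second run alone 2 members were called, because Egr2 (adjusted p = 0.346) and Egr3 (0.111) did not pass, and in the first run alone Egr3 did not pass (0.0979). The starting state and the time in culture differ between the 2 responses, and so may the stimulus, which is named for TH1 cells only. These cannot be told apart.

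**Figure D4:**
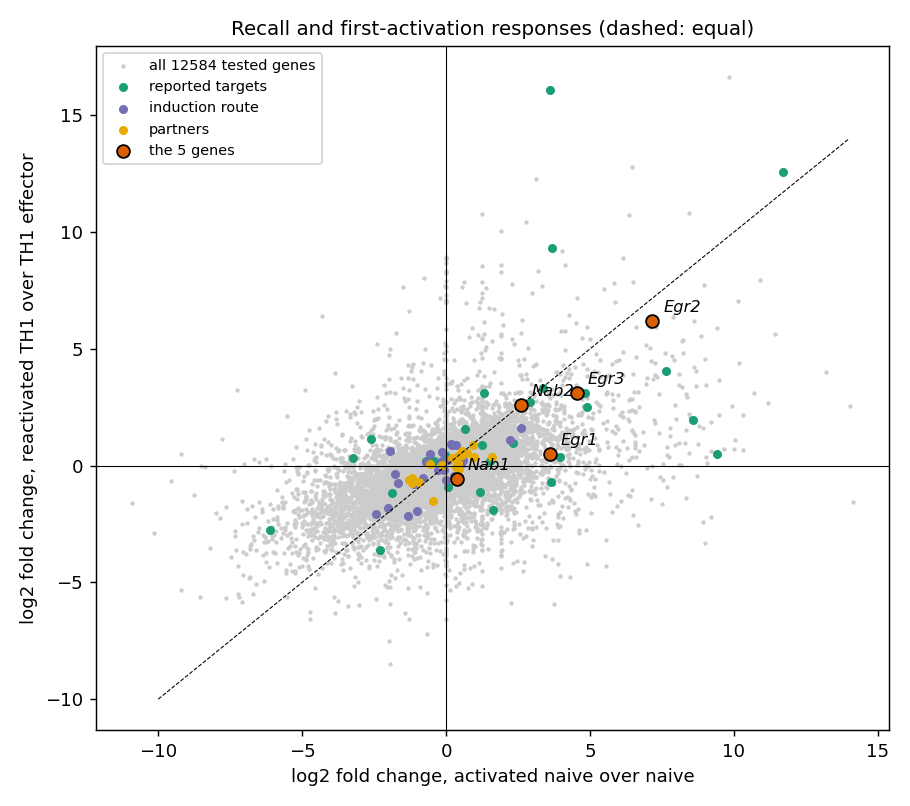
Fitted log2 fold change on restimulation (reactivated TH1 over TH1 effector) against that on first activation (activated naive over naive) for all 12584 tested genes in grey, the 5 members in orange and 3 lists of related genes, with a dashed line where both are equal. Nab2 lies on the line, and Egr1, Egr2, Egr3 and Nab1 lie below it; fitted values of genes with no counts in a resting group depend on the prior count.

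Genes of the route that induces EGR genes, from T cell receptor-near RAS activation through ERK kinases to SRF, ELK and NFAT factors, moved in both directions. Over all tested genes, for reading the medians of this and the next lists, the median log2 change was 0.00464 in activated naive against naive, -0.00227 in reactivated TH1 against TH1 effector, 0.0565 in TH1 effector against naive and 0.0787 in reactivated TH1 against activated naive cells. Of all tested genes, 41.3% were called higher and 40.5% lower in activated naive against naive cells. On restimulation the shares were 39.9% and 39.8%. They were 44.6% and 40.3% in TH1 effector against naive, and 43.4% and 36.4% in reactivated TH1 against activated naive cells. For the difference of the responses they were 34.3% and 33.7%. Calls in both directions were thus common among all genes. Of 26 route genes, all tested, 9 were higher, 13 lower and 4 not past the threshold in activated naive against naive cells (median log2 -0.13). Nfatc1, a calcium-responsive factor, was the most raised of them with 996 CPM in activated naive and 163.3 CPM in naive cells (log2 2.61, SE 0.11, adjusted p = 4.05e-19). Mapk3, which encodes the kinase ERK1, was the most lowered with 6.83 and 36.7 CPM in the same states (log2 -2.43, SE 0.12, adjusted p = 3.95e-16). On restimulation 13 were higher, 12 lower and 1 not past the threshold (median 0.11). There Nfatc1 was again the most raised with 320 CPM in reactivated TH1 and 105 CPM in TH1 effector cells (log2 1.61, SE 0.09, adjusted p = 1.38e-14). Rasgrp1, which links the receptor to RAS, was the most lowered with 75.9 and 343 CPM in these states (log2 -2.17, SE 0.05, adjusted p = 2.69e-21).

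Between the resting states, 8 of the 26 route genes were higher, 15 lower and 3 not past the threshold in TH1 effector against naive cells (median log2 -0.56). Nfatc2, a further calcium-responsive factor, was higher with 245 CPM in TH1 effector and 91.7 CPM in naive cells, and Mkl1, a cofactor of SRF, was lower with 57.2 and 185 CPM. In reactivated TH1 against activated naive cells, 10 were higher, 14 lower and 2 not past the threshold. Rps6ka1, a kinase downstream of ERK, was higher with 225 CPM in reactivated TH1 and 58.1 CPM in activated naive cells.

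Genes reported as EGR targets or as genes under EGR2 and EGR3 control in T cells were followed as a list of 29, of which 28 were tested (Zbtb16 was not). In activated naive against naive cells 17 were higher, 7 lower and 4 not past the threshold, with a median log2 change of 1.58. Il2, the T cell growth factor, had the largest fitted rise with 16.7 CPM in activated naive cells and no count in naive libraries, which allows up to 0.0205 CPM over the group. Socs3, an inhibitor of cytokine signalling, had the largest fall with 4.66 CPM in activated naive and 320 CPM in naive cells (log2 -6.12, SE 0.18, adjusted p = 4.84e-20). On restimulation 20 were higher, 7 lower and 1 not past the threshold (median 0.69). The chemokine gene Ccl1 led with 317 CPM in reactivated TH1 cells and no count in TH1 effector libraries, which allows up to 0.0177 CPM. Socs3 again was the most lowered, with 15.7 CPM in reactivated TH1 and 108 CPM in TH1 effector cells.

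In reactivated TH1 against activated naive cells, all 5 members were lower, with the Nab2 call near the threshold. Of the 28 targets, 17 were higher there, 5 lower and 6 not past the threshold (median 1.60). Ccl1 was the most raised, with 317 CPM in reactivated TH1 and 0.0523 CPM in activated naive cells. Bcl6, a repressor known from follicular helper cells, was the most lowered, with 51.0 CPM in reactivated TH1 and 234.6 CPM in activated naive cells. For the difference of the responses 10 were higher, 10 lower and 8 not past the threshold (median -0.29). Crtam, an adhesion molecule of activated T cells, had the largest positive difference (log2 5.64, adjusted p = 2.03e-12), with 485 CPM in reactivated TH1, 0.767 CPM in TH1 effector, 14.6 CPM in activated naive and 1.13 CPM in naive cells. Cdkn1a, the cell cycle inhibitor, had the largest negative one (log2 -8.90, adjusted p = 2.9e-14), with 260, 182, 111 and 0.156 CPM in the same order.

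Partners of NAB proteins and EGR factors, mainly subunits of the CHD4-containing nucleosome remodelling and deacetylase complex, moved in both directions too. Of 18, all tested, 11 were higher, 7 lower and 0 not past the threshold in activated naive against naive cells (median log2 0.37). On restimulation 8 were higher, 6 lower and 4 not past the threshold (median 0.08). Chd4 itself, the remodelling enzyme that NAB2 is known to bind, averaged 1234 CPM in reactivated TH1 and 668 CPM in TH1 effector cells (log2 0.89, SE 0.04, adjusted p = 4.36e-15), the largest rise of the list there. Mta3, another subunit gene, had the largest fall with 31.4 and 89.5 CPM (log2 -1.51, SE 0.03, adjusted p = 8.54e-16). On first activation the histone-binding subunit gene Rbbp7 had the largest rise with 327 CPM in activated naive and 108 CPM in naive cells, and Chd3, a relative of Chd4, the largest fall with 562 and 1375 CPM. In TH1 effector against naive cells 10 were higher, 7 lower and 1 not past the threshold (median 0.19). Rbbp7 again had the largest rise with 321 CPM in TH1 effector and 108 CPM in naive cells (log2 1.57, SE 0.05, adjusted p = 4.67e-19). Chd3 again had the largest fall with 294 and 1375 CPM (log2 -2.22, SE 0.11, adjusted p = 3.39e-17).

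Nr4a1, whose regulatory region drives the reporter of these mice and which is itself an immediate-early gene, averaged 790 ± 639 CPM in reactivated TH1, 298 ± 160 CPM in TH1 effector, 9046 ± 2500 CPM in activated naive and 434 ± 199 CPM in naive libraries (SD, n = 6 each). The order of its means has activated naive cells far on top, as for Egr1. Within states, the relation of each member to Nr4a1 over the 6 libraries was computed, 20 relations in all for 5 genes in 4 states, and after adjustment none passed. The lowest adjusted p for r was that of Nab2 in reactivated TH1 libraries (Pearson r = 0.98, exact permutation p = 0.00278; Spearman rho = 0.943, exact permutation p = 0.0167). Its adjusted p was 0.0556 for r and 0.111 for rho. Without numbers 1 and 3, the 2 libraries farthest from the median log2 CPM of Nr4a1, r was 0.953. In naive libraries Nab2 gave r = 0.186 (exact permutation p = 0.682) and rho = -0.0286 (exact permutation p = 1), with r at -0.254 without the 2 farthest. Each run holds only 3 libraries of a state, too few for values within runs. In activated naive libraries numbers 1 and 4 stood apart in Nr4a1 (11645 and 12801 CPM, against 7143 to 7883 CPM in the other 4). In TH1 effector libraries Nr4a1 was 133 to 180 CPM in the first and 412 to 498 CPM in the second run. As these libraries fall into separate sets, no coefficient over all 6 is read in either state. The same holds for the sign of r over all 6 for Nab2, positive in activated naive and negative in TH1 effector libraries. Without the 2 libraries farthest in Nr4a1, r was -0.167 in activated naive and -0.968 in TH1 effector libraries.

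For each member the tested genes with the most similar profile were sought, by the root mean square difference of log2 CPM over the 24 libraries after subtracting each gene's mean. For Egr1 these were Per2 (0.576), a circadian clock gene, Itm2a (0.620) and Folr4 (0.688). Itm2a, for instance, averaged 59.2 CPM in reactivated TH1, 43.0 CPM in TH1 effector, 1330 CPM in activated naive and 72.9 CPM in naive libraries, a single peak in activated naive cells like that of Egr1. For Egr2 they were Bcl2a1d (0.534), whose reads are uncertain because of near-identical copies, Hivep3 (0.782) and 2410018M08Rik (0.902). Hivep3 averaged 631, 13.8, 1842 and 3.93 CPM in the same order. For Egr3 they were 4930417O13Rik (0.609), Tmem88 (0.622) and Rel (0.707), the NF-kB subunit. For Nab2 they were Slc41a1 (0.373), Noc3l (0.439) and Rnmtl1 (0.449). For Nab1, whose own values vary little, distances were smaller, with Hook3 (0.159), Actr3 (0.182) and C78339 (0.187). No member was among the closest 3 of another.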

How the data were processed

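For each library the authors deposited whole-number counts of reads by gene symbol, without normalisation. STAR, HTSeq, DESeq2 and the build mm10 are named, without roles or versions, per the submitters' processing notes, and a kit that keeps RNA strand is named per the labels' protocols. The sources used here give neither the annotation nor whether counting used strand. Reads meeting no feature (13.2% to 24.5%), ambiguous reads (0.706% to 1.25%) and reads aligned to several places (5.41% to 7.83%) stayed out of library sizes.

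From these counts, genes were filtered with filterByExpr, scaled with TMM factors (0.9239 to 1.072) and fitted with edgeR 4.0.16 (R 4.3.3, limma 3.58.1) in 1 robust quasi-likelihood model of group and run over the 24 libraries. There were 7 contrasts, each with Benjamini-Hochberg adjustment over 12584 genes and called at 0.05. All adjusted p-values are from this test unless another is named. Levels are CPM on TMM-scaled library sizes. The SE is that of a difference of mean log2 CPM (prior count 2), from the spread within group and run. It keeps the spread of each group apart, whereas the test shares 1 estimate per gene among the 4 groups. The SE and the adjusted p of a difference therefore need not match. The alternatives tried include DESeq2 1.42.0. The procedure was also run on simulated data.

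The members and the lists were chosen with earlier results of these data known. List genes are named by rule: in each list the called gene with the largest rise and that with the largest fall, given a mean of 10 CPM or more in the higher state. Hras and Adgre1 were found under the symbols Hras1 and Emr1. The fall named by this rule for 1 gene of the induction route is not reported here. List genes were not checked for overlapping genes on the other strand. No pair of libraries in a group matched within counting noise (chi-square over degrees of freedom of 8.896 or more). Libraries of different groups with the same number in their titles deviated together from their group means (36 pairs, r of 0.106 to 0.430, median 0.265). Every pair was over 0.1, and the numbers thus appear to pair the samples. The fit printed here has the run and not the number as a term, so its p-values and the SEs leave this pairing out. A fit with the number as a block in place of the run was tried beside it. With the run removed as well, r was 0.079 to 0.419, over 0.1 in 35 of the 36. Floors of 3 counts cover counting error only.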

Additional observations from a re-analysis of the deposited data

Results flagged for a closer look

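Nab1 in reactivated TH1 library number 4 was at 87.4 CPM, apart from the next highest library of that state, 74.5 CPM. It was the only such library among the 20 sets of 1 member in 1 state, and chance flags about 1 set in 20. The response of TH1 cells differed from that of naive cells, by the test of the difference itself, for Egr1 (log2 -3.09), Egr2 (-0.95), Egr3 (-1.43) and Nab1 (-0.94). For Egr1, the difference was -4.15 in the first and -1.64 in the second run.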

How the results depend on the processing

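Of 35 results, 5 members in 7 comparisons, 23 kept their direction and their side of the threshold under all 16 alternatives run, among them each rise of Egr2, Egr3 and Nab2 on both stimulations. For TH1 effector against naive cells, 1 member was called in the second run alone and 1 without number 5 or 6, against 3 with all libraries, so leaving out each number in turn gave 1 to 3. For the TH1 response minus the naive response, 2 members were called in the second run alone, against 4. Egr2 in TH1 effector against naive cells turned to -0.44 with only the second run. Leaving out each number in turn gave -0.0395 to 0.333 for it, the negative value being that without number 1, and leaving out both 1 and 4, chosen after seeing the data, gave -0.12. Egr1 in reactivated TH1 against TH1 effector cells turned to -0.39 in the first run alone. The difference of responses in Nab2 turned to -0.0461 with DESeq2 size factors, -0.0437 with the DESeq2 Wald test, and -0.0982 with only the second run. Leaving out each number in turn gave -0.109 to 0.174 for it, with -0.0686 without number 6. The cause was not tested. Nab1 passed in TH1 effector against naive cells with only these groups fitted (adjusted p = 0.00929), and against activated naive cells with no filter (0.0499) and without number 3 (0.016) or 6 (0.012). Scaling by library size only moved the median of all genes by -0.142 in activated naive against naive, -0.122 in reactivated TH1 against TH1 effector, -0.153 in reactivated TH1 against naive and 0.136 in TH1 effector against activated naive cells. Counts of called genes stayed within 1.5 times of the main ones, the replicate block giving 10336 genes for activated naive against naive cells, against 10303. The replicate block, with the number as a term in place of the run, changed no call of a member. The difference of responses uses all 4 groups, so no fit to fewer groups was run for it. Depth limits Egr4 and Wt1, which were not tested.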

Other observations

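Activated naive libraries number 1 and 4, from different runs, held the highest values of the state in Egr1 (1282 and 1323 CPM, against 748 to 977 CPM in the other 4), Egr2 (726 and 805 CPM, against 528 to 577 CPM), Egr3 (161.6 and 165.1 CPM), Nab2 (496 and 529 CPM) and Nr4a1 (11645 and 12801 CPM). In reactivated TH1 cells, numbers 1 and 4 were the highest of their run in the same 5 genes, with 78.3 and 101 CPM of Egr1, 409 and 393 CPM of Egr2, 19.4 and 19.8 CPM of Egr3, 290 and 223 CPM of Nab2, and 1918 and 1088 CPM of Nr4a1. Without both numbers, chosen after seeing the data, the rise of Egr3 in activated naive over naive cells was 4.18 on the log2 scale, against 4.55 with all libraries, and that of Nab2 was 1.97, against 2.60. Whether these numbers share an animal, a culture or a day is not given in the labels.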
